A study of Homo sapiens with 16 samples.

Results

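The 40 genes described here act in mitosis, the division of the chromosomes and of the cell. They were taken by symbol from a fixed list, and all 40 were found among the 23597 genes of the RNA-seq table and the 19201 genes of the Ribo-seq table. The measurements come from WI-38, a line of human lung fibroblasts that divides for a limited number of passages and then enters senescence, a lasting arrest of division. Transcripts were counted by RNA-seq, and Ribo-seq counted the stretches of mRNA covered by ribosomes, called footprints. For each assay there were 2 libraries of senescent cells (passage 36) heat shocked for 2 h at 44 °C (the degree sign is garbled in the labels), 2 of senescent control cells, 2 of young cells (passage 24) heat shocked in the same way and 2 of young control cells, 16 libraries in all. All groups, controls included, had been starved of serum for 24 h to synchronise the cell cycle and then given complete medium for 24 h, and senescent cells had been plated at a somewhat higher number than young cells. Senescence here means a late passage of a single line, and nothing in the labels says that same-group libraries came from separate cultures, so p-values measure only the spread between these libraries. In bulk samples, fewer dividing cells and less RNA per dividing cell cannot be told apart.

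A cell enters mitosis when cyclin B binds the kinase CDK1. The spindle assembly checkpoint holds the chromosomes together until every kinetochore is attached to the spindle, and the anaphase-promoting complex then tags securin and cyclin B for destruction, which lets the chromosomes part. Most of these genes are silent in resting cells and are switched on late in the cell cycle by the MuvB complex with B-MYB and FOXM1, which acts on promoters holding a short element, the CHR (cell cycle genes homology region), often beside CCAAT boxes. In non-dividing cells the DREAM complex keeps the same promoters off. Loss of their transcripts is a known feature of senescent fibroblasts.

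Promoters were read from the RefSeq table (GRCh38.p14), which held 34 of the 40 genes, over the 250 bases before each gene's start. The CHR was searched as TTTGAA or TTCGAA on both strands and was found in 18 of the 34 promoters (52.9%), against 14.3% of all 35116 promoters in the table. CCAAT, searched on both strands, was found in 25 of the 34 (73.5%), against 32.0% of all promoters. Both stood in 15 of the 34 (44.1%), against 5.05% of all. A match is a run of letters and not a shown binding site. The 6 members with the highest RNA level among the 18 with a CHR match are printed below to show where it stands in them. They run 5′ to 3′ along the gene's strand and end at the last base before the start. Capitals mark the CHR or its reverse complement; the second match of CDC20 lies further upstream than the stretch shown. They are the promoters of CDC20 at chr1:43358831-43358980 (plus strand), ANLN at chr7:36389712-36389861 (plus strand), PRC1 at chr15:90994536-90994685 (minus strand), TOP2A at chr17:40417897-40418146 (minus strand), CDK1 at chr10:60778081-60778330 (plus strand) and CCNB2 at chr15:59104996-59105145 (plus strand).
CDC20: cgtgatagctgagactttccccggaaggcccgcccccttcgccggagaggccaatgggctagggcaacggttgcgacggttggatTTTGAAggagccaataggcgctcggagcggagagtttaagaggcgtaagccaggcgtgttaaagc
ANLN: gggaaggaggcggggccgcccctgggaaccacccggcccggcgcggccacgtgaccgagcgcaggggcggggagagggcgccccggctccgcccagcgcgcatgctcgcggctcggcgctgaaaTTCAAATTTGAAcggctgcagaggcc
PRC1: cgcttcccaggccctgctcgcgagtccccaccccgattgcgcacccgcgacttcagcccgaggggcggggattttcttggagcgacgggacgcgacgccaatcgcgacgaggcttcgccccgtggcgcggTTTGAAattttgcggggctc
TOP2A: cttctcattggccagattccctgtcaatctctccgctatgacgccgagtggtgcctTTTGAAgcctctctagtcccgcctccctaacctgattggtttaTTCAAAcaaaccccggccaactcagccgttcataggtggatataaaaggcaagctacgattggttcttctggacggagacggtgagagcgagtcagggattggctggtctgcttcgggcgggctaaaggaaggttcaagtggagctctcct
CDK1: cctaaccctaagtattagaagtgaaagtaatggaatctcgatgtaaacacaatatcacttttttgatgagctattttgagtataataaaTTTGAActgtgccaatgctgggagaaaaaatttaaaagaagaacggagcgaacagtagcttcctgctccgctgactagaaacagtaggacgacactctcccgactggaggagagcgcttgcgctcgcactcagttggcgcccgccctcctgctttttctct
CCNB2: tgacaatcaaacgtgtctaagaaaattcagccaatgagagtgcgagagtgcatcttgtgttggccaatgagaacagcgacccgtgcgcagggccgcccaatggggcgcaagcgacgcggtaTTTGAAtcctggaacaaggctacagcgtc

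Libraries held 26434514 to 37126871 RNA-seq counts and 4581141 to 9104077 Ribo-seq counts. The 10 fibroblast markers summed to 12419 to 18990 TPM over the RNA-seq libraries, the 5 immune markers to 0.23 to 0.83 TPM, the 5 endothelial markers to 12.4 to 25.1 TPM and the 7 epithelial markers to 188 to 224 TPM in senescent libraries, against 133 to 147 TPM in young libraries, with the epithelial genes CDH1 and EPCAM at or below 0.43 TPM in each RNA-seq library. Most of the epithelial sum came from KRT19, KRT18 and KRT8, with mean RNA levels of 76.4, 76.3 and 18.3 TPM. Most of the endothelial sum came from TEK (mean 15.9 TPM). The part of these markers in the results below was not tested. Heat-induced chaperone genes summed to 31272 to 53110 TPM in the heat-shocked RNA-seq libraries, against 3415 to 4026 TPM in the controls.

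The libraries of a group stood apart in these genes, which bears on each result below. Replicate 2 stood above replicate 1 for 37 of the 40 genes in senescent control RNA and for 39 in each of young control, senescent heat-shocked and young heat-shocked RNA. The median difference was 0.76, 0.73, 1.78 and 0.78 on the log2 scale in that order of groups, while the median over all genes lay between −0.01 and 0.06 in RNA. In footprints replicate 2 was above replicate 1 for 40 genes in senescent control (median 1.27), 30 in young control (0.11), 39 in senescent heat-shocked (1.88) and 35 in young heat-shocked cells (0.83). The labels do not say what a replicate number stands for.

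Summed over the 40 genes, RNA-seq gave 256 and 429.8 TPM (a level scaled for transcript length and library) in senescent control cells, against 465 and 780.2 TPM in young control cells. Heat-shocked cells gave 205 and 557 TPM when senescent, against 323 and 559.8 TPM when young. In footprints the sums were 233 and 522 TPM in senescent control cells, against 849 and 922 TPM in young control cells. Heat-shocked footprints summed to 274 and 858 TPM in senescent cells, against 365 and 763 TPM in young cells. The 2 senescent control libraries lay below both young controls in each assay, and the heat-shocked senescent and young libraries overlapped.

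**Figure D1:**
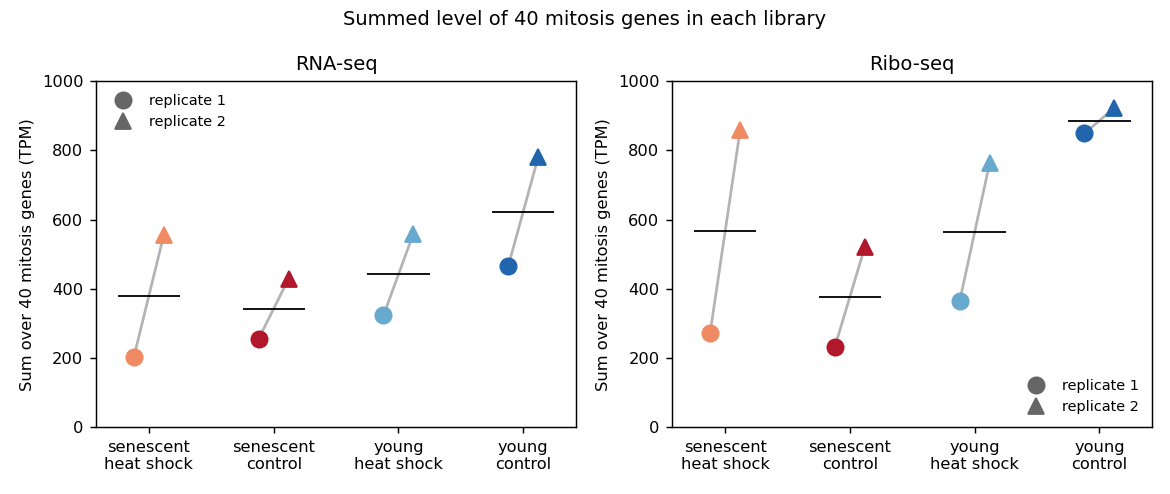
Sum of the TPM of the 40 mitosis genes in each library, for RNA-seq (left) and Ribo-seq (right); circles are replicate 1, triangles replicate 2 and black bars the mean of the 2 libraries. Senescent control libraries (256 and 429.8 TPM in RNA-seq) lie below young control libraries (465 and 780.2 TPM), and the heat-shocked senescent libraries lie furthest apart (205 and 557 TPM).

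In control cells every mitosis gene had a fitted change below 0 in senescent against young cells, in both assays. The median log2 change was −0.88 in RNA (range −1.43 to −0.12) and −1.26 in footprints (−2.27 to −0.46), against medians near 0 over all genes tested, which were 13177 in RNA and 11288 in footprints. None of the 40 passed the adjusted p threshold of 0.05 in edgeR's quasi-likelihood test in either assay. At an unadjusted p under 0.05, 7 were lower in RNA and 9 in footprints, against 3.48% and 3.41% of all genes. DESeq2 called 0 in RNA and 1 in footprints (KIF11, against 0.336% of all genes lower), and limma called 0 in both. Over all genes edgeR called 0.0379% in RNA, 0.0304% higher and 0.00759% lower, and 0% in footprints. Every senescent library lay below every young library in TPM for 27 of the 40 genes in RNA, against 26.9% of all genes, and for 40 of the 40 in footprints, against 28.6% of all genes.

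Same-numbered RNA libraries deviated together, so the RNA comparison was also made with replicate number as a block. With the block 8 of the 40 fell in senescent control cells, against 1.57% of all genes called lower. They were the mitotic transcription factor FOXM1, cyclin A2 (CCNA2), the kinetochore genes CENPE and CENPF, the spindle motor KIF11, the spindle pole gene ASPM, and KIF23 and ANLN, which act in the splitting of the cell. With the GC trend removed as well, CENPE (adjusted p = 0.0271) and FOXM1 (0.0314) were still called, against 1.09% of all genes called lower, and the other 6 were not, with edgeR adjusted p between 0.0548 (KIF23) and 0.104 (KIF11). Within replicates, senescent RNA was below young RNA in both replicate 1 and replicate 2 for 38 of the 40 genes. Across numbers, senescent control replicate 1 was below young control replicate 2 for all 40 (median log2 difference −1.62). Senescent control replicate 2 was below young control replicate 1 for only 24 of the 40 (median −0.16). The RNA median was −0.53 without senescent control replicate 1, −1.35 without senescent control replicate 2 and −0.45 without young control replicate 2. In footprints it was −0.75 without senescent control replicate 1 and −2.13 without senescent control replicate 2.

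**Figure D2:**
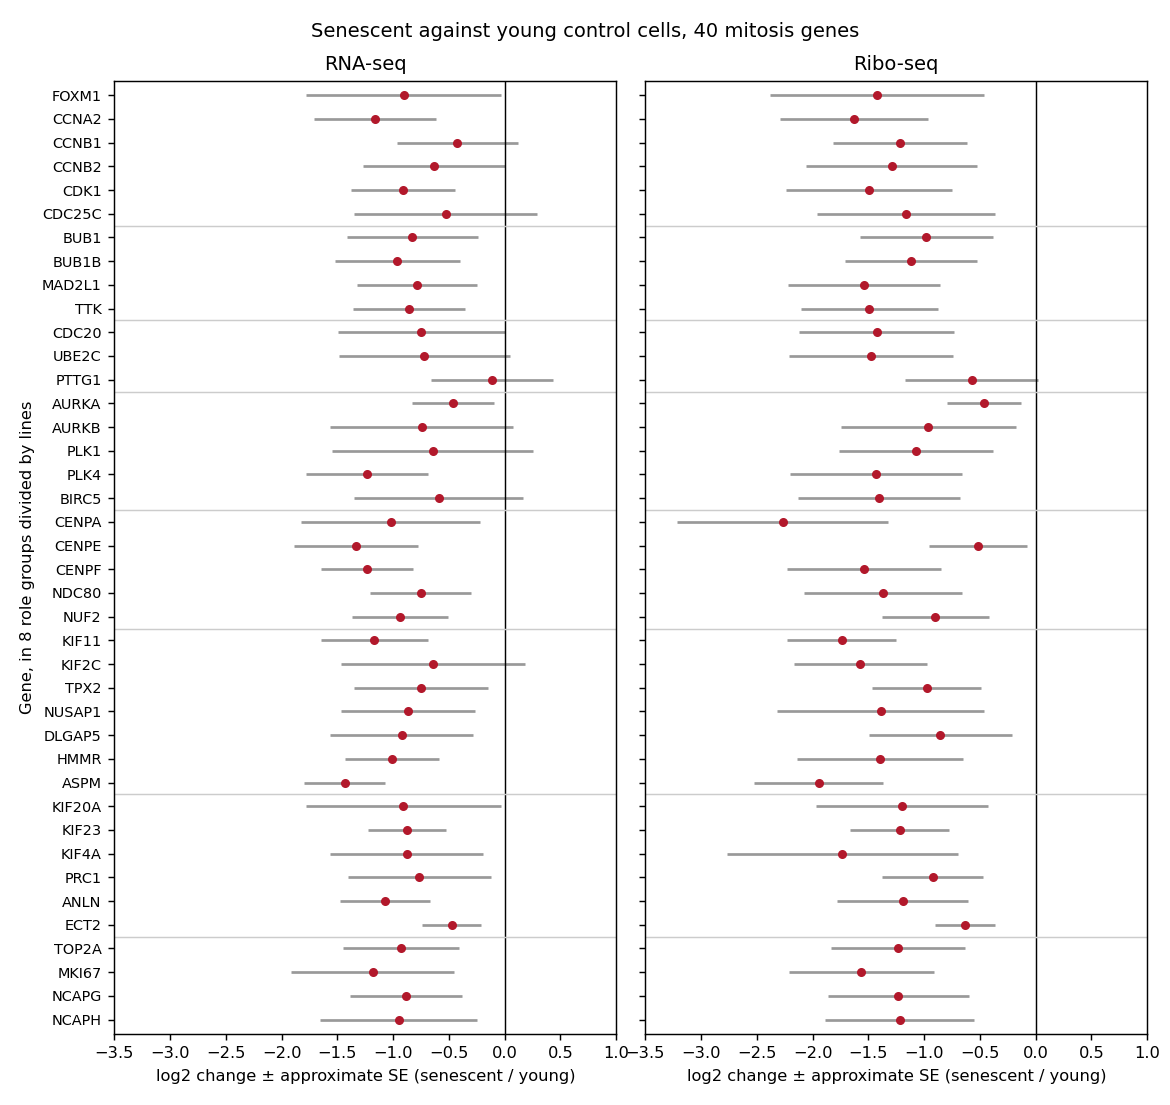
Fitted log2 change of each of the 40 mitosis genes in senescent against young control cells, in RNA-seq (left) and Ribo-seq (right), with the approximate standard error as a bar; grey lines divide the 8 role groups. All 40 points lie below 0 in both assays, with medians of −0.88 and −1.26.

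Among the 6 genes of the cyclin and CDK core the median change in senescent control cells was −0.77 in RNA and −1.36 in footprints. FOXM1 is the transcription factor that drives many of the others. FOXM1 transcripts stood at 5.04 and 17.7 TPM in senescent control cells, against 12.2 and 34.5 TPM in young control cells. FOXM1 footprints measured 0.0 and 2.46 TPM in senescent control cells, against 4.04 and 2.86 TPM in young control cells. The RNA groups overlapped, since senescent control replicate 2 was above young control replicate 1, and the block fit gave −0.97 ± 0.20 (edgeR with the block, adjusted p = 0.0396); without young control replicate 2 the change was 0.10. Cyclin B1, encoded by CCNB1, activates CDK1 at the onset of mitosis. CCNB1 transcripts measured 14.1 and 18.8 TPM in senescent control cells, against 15.5 and 32.7 TPM in young control cells. CCNB1 footprints were at 15 and 27.6 TPM in senescent control cells, against 46.2 and 55.3 TPM in young control cells. RNA of CCNB1 overlapped between the states, while its footprints did not. CDK1 transcripts were at 9.76 and 12.5 TPM in senescent control cells, against 18.9 and 27.2 TPM in young control cells. CDK1 footprints amounted to 10.6 and 33.7 TPM in senescent control cells, against 72.2 and 64.4 TPM in young control cells. CDK1, the kinase itself, did not overlap in either assay. The fitted change of CDK1 was −0.91 ± 0.47 (edgeR, adjusted p = 0.768) in RNA and −1.50 ± 0.74 (edgeR, adjusted p = 0.679) in footprints. Of the other 3, CCNA2 had −1.16 ± 0.55 in RNA, CCNB2 (cyclin B2) −0.63 ± 0.64 and CDC25C, the phosphatase that activates CDK1, −0.53 ± 0.82.

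The 4 genes of the spindle assembly checkpoint had medians of −0.84 in RNA and −1.31 in footprints in senescent against young control cells. MAD2L1 encodes MAD2, which holds back CDC20 while kinetochores are unattached. MAD2L1 transcripts amounted to 11.9 and 16.7 TPM in senescent control cells, against 20.6 and 33.5 TPM in young control cells. MAD2L1 footprints came to 7.37 and 32.4 TPM in senescent control cells, against 55 and 64.8 TPM in young control cells. BUB1 is a checkpoint kinase at the kinetochore. BUB1 transcripts came to 2.95 and 5.54 TPM in senescent control cells, against 7.21 and 9.36 TPM in young control cells. BUB1 footprints stood at 2.54 and 6.29 TPM in senescent control cells, against 8.55 and 9.13 TPM in young control cells. TTK, also called MPS1, starts the checkpoint signal. TTK transcripts stood at 2.66 and 2.5 TPM in senescent control cells, against 3.98 and 6.26 TPM in young control cells. TTK footprints measured 1.72 and 3.48 TPM in senescent control cells, against 6.25 and 8.84 TPM in young control cells. Senescent and young control libraries did not overlap for any of these 3 genes. Over all genes, 26.9% in RNA and 28.6% in footprints likewise lay wholly lower in senescent control cells. BUB1B, which encodes BUBR1, had −0.96 ± 0.56 in RNA and −1.12 ± 0.59 in footprints. The RNA level of TTK differed less between the senescent control libraries than that of BUB1.

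The 3 genes around the anaphase-promoting complex had medians of −0.72 in RNA and −1.43 in footprints. PTTG1 encodes securin, the inhibitor that is destroyed at anaphase, and had the highest mean RNA level of the 40 genes (39.4 TPM). PTTG1 transcripts measured 29.9 and 42.8 TPM in senescent control cells, against 31 and 55.3 TPM in young control cells. PTTG1 footprints were at 31.4 and 49.8 TPM in senescent control cells, against 58.2 and 65.8 TPM in young control cells. Its RNA change was also the one nearest to 0, −0.12 ± 0.55 (edgeR, adjusted p = 0.982), and its RNA groups overlapped. UBE2C is the ubiquitin-conjugating enzyme of the complex. UBE2C transcripts were at 13.9 and 34.6 TPM in senescent control cells, against 26.2 and 61.6 TPM in young control cells. UBE2C footprints amounted to 23.4 and 65.1 TPM in senescent control cells, against 109 and 120.4 TPM in young control cells. UBE2C overlapped in RNA and not in footprints, where senescent control replicate 2 was well above replicate 1. CDC20, which activates the complex, had −0.75 ± 0.75 in RNA and −1.43 ± 0.69 in footprints. PTTG1 has near-identical copies in the genome, so its counts are uncertain where reads fit several copies.

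The 5 mitotic kinases and chromosomal passengers had medians of −0.65 in RNA and −1.07 in footprints. BIRC5 encodes survivin, a passenger protein that places Aurora B. BIRC5 transcripts amounted to 9.82 and 22.6 TPM in senescent control cells, against 16.3 and 37.3 TPM in young control cells. BIRC5 footprints came to 6.01 and 25.5 TPM in senescent control cells, against 37.3 and 49.4 TPM in young control cells. BIRC5 transcripts overlapped between senescent and young control cells. AURKA, Aurora A, builds the spindle poles. AURKA transcripts came to 21.9 and 21.8 TPM in senescent control cells, against 31.3 and 34.5 TPM in young control cells. AURKA footprints stood at 21.3 and 24.4 TPM in senescent control cells, against 32.5 and 31.9 TPM in young control cells. AURKA differed little between replicates, and each senescent library was below each young one by a modest margin. PLK4 controls the copying of centrioles. PLK4 transcripts stood at 1.73 and 1.82 TPM in senescent control cells, against 4.13 and 4.93 TPM in young control cells. PLK4 footprints measured 0.27 and 1.77 TPM in senescent control cells, against 2.58 and 3.02 TPM in young control cells. The fitted change of PLK4 was −1.23 ± 0.55 (edgeR, adjusted p = 0.703) in RNA, with footprint counts of only 4 and 32 in senescent control cells, against 70 and 96 in young control cells. The kinases PLK1 and AURKB had −0.65 ± 0.90 and −0.74 ± 0.82 in RNA.

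The 5 kinetochore and centromere genes had the lowest role median in RNA, −1.02, with −1.37 in footprints. NDC80 and NUF2 belong to the complex that grips microtubules. NDC80 transcripts measured 3.43 and 4.02 TPM in senescent control cells, against 6.66 and 7.17 TPM in young control cells. NDC80 footprints were at 1.92 and 5.69 TPM in senescent control cells, against 10.4 and 9.89 TPM in young control cells. Neither replicate of the senescent cells reached the young level. NUF2 transcripts were at 2.56 and 2.54 TPM in senescent control cells, against 5.23 and 5.84 TPM in young control cells. NUF2 footprints amounted to 3.55 and 4.76 TPM in senescent control cells, against 7.65 and 8.29 TPM in young control cells. CENPF, a large kinetochore protein that gathers late in the cell cycle, showed the same separation. CENPF transcripts amounted to 1.35 and 2.23 TPM in senescent control cells, against 4.55 and 4.77 TPM in young control cells. CENPF footprints came to 0.8 and 2.41 TPM in senescent control cells, against 5.02 and 4.61 TPM in young control cells. CENPF fell in RNA with the block, −1.30 ± 0.25 (edgeR with the block, adjusted p = 0.0344), and lost the call with the GC trend removed too (edgeR, adjusted p = 0.0758). CENPE is the kinetochore motor that moves chromosomes to the middle of the spindle. CENPE transcripts came to 1 and 0.39 TPM in senescent control cells, against 2.56 and 1.3 TPM in young control cells. CENPE footprints stood at 1.48 and 1.49 TPM in senescent control cells, against 2.16 and 2.18 TPM in young control cells. The change of CENPE was −1.38 ± 0.20 (edgeR with the block, adjusted p = 0.0158) in RNA and −0.52 ± 0.44 (edgeR, adjusted p = 0.8) in footprints. Unlike most of the 40, its transcripts were higher in replicate 1 than in replicate 2. CENPA, the centromeric histone, had 0 and 5 footprint counts in senescent control cells, against 20 and 23 in young control cells, too few for a fold.

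Among the 7 spindle motors and microtubule factors the medians were −0.93 in RNA and −1.39 in footprints. TPX2 activates AURKA on spindle microtubules. TPX2 transcripts stood at 10.4 and 17 TPM in senescent control cells, against 18.4 and 32.1 TPM in young control cells. TPX2 footprints measured 7.67 and 15.1 TPM in senescent control cells, against 21.6 and 24.5 TPM in young control cells. NUSAP1 bundles microtubules near the chromosomes. NUSAP1 transcripts measured 5.12 and 9.59 TPM in senescent control cells, against 11.6 and 18 TPM in young control cells. NUSAP1 footprints were at 2.66 and 18.1 TPM in senescent control cells, against 26.2 and 28.9 TPM in young control cells. In both genes senescent control replicate 2 came close to young control replicate 1 in RNA without overlapping it. ASPM, which focuses spindle poles, was the least abundant of the 40 in RNA (mean 1.08 TPM). ASPM transcripts were at 0.71 and 0.64 TPM in senescent control cells, against 2.07 and 1.94 TPM in young control cells. ASPM footprints amounted to 0.33 and 0.64 TPM in senescent control cells, against 1.41 and 1.95 TPM in young control cells. The replicates of ASPM lay close together in RNA, and it had the change furthest below 0 of the 40, −1.43 ± 0.36 (edgeR, adjusted p = 0.306), and −1.44 ± 0.27 (edgeR with the block, adjusted p = 0.03), where removing the GC trend too gave an edgeR adjusted p of 0.075. KIF11, the motor that pushes spindle poles apart, had −1.17 ± 0.48 (edgeR, adjusted p = 0.663) in RNA and −1.74 ± 0.49 (edgeR, adjusted p = 0.358) in footprints; DESeq2 gave −1.74 in footprints with an adjusted p of 0.0279. HMMR, DLGAP5 and KIF2C ranged between −1.01 and −0.64 in RNA.

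For the 6 genes of the central spindle and cytokinesis the medians were −0.88 in RNA and −1.20 in footprints. ANLN encodes anillin, a scaffold of the contractile ring. ANLN transcripts amounted to 10.4 and 17 TPM in senescent control cells, against 27.1 and 36.4 TPM in young control cells. ANLN footprints came to 8.59 and 22.4 TPM in senescent control cells, against 36.8 and 36 TPM in young control cells. PRC1 cross-links microtubules between the parting chromosomes. PRC1 transcripts came to 8.56 and 17 TPM in senescent control cells, against 17.5 and 30.2 TPM in young control cells. PRC1 footprints stood at 11.6 and 15.9 TPM in senescent control cells, against 23.3 and 28.4 TPM in young control cells. Senescent and young control libraries did not overlap for ANLN or PRC1 in either assay, a separation seen for 26.9% of all genes in RNA and 28.6% in footprints. ANLN had −1.07 ± 0.41 (edgeR, adjusted p = 0.614) in RNA and fell with the block, −1.10 ± 0.21 (edgeR with the block, adjusted p = 0.0369), but not with the GC trend removed too (edgeR, adjusted p = 0.0955). ECT2, an activator of RhoA at the division site, had −0.47 ± 0.26, and KIF23, KIF20A and KIF4A lay between −0.91 and −0.88 in RNA. KIF4A had 0 footprint counts in senescent control replicate 1 and 78 in replicate 2, against 185 and 249 in young control cells. KIF4A has a near-identical intronless copy, so its counts are uncertain.

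The 4 genes of chromosome structure had medians of −0.94 in RNA and −1.24 in footprints. TOP2A untangles DNA before the chromosomes part. TOP2A transcripts stood at 8.69 and 14.2 TPM in senescent control cells, against 21.5 and 26.4 TPM in young control cells. TOP2A footprints measured 8.73 and 12.9 TPM in senescent control cells, against 24.5 and 27.7 TPM in young control cells. MKI67 encodes Ki-67, the common marker of dividing cells, which coats mitotic chromosomes. MKI67 transcripts measured 1.32 and 4.63 TPM in senescent control cells, against 6.05 and 8.76 TPM in young control cells. MKI67 footprints were at 0.69 and 1.99 TPM in senescent control cells, against 4.18 and 3.98 TPM in young control cells. MKI67 varied widely between the 2 senescent control libraries in both assays, and both stayed below the young ones. Its fitted change was −1.18 ± 0.73 (edgeR, adjusted p = 0.815) in RNA and −1.56 ± 0.65 (edgeR, adjusted p = 0.601) in footprints. NCAPG is a subunit of condensin, which compacts chromosomes. NCAPG transcripts were at 4.48 and 5.63 TPM in senescent control cells, against 9.5 and 11 TPM in young control cells. NCAPG footprints amounted to 3.45 and 11.1 TPM in senescent control cells, against 17 and 18.1 TPM in young control cells. NCAPH, another condensin subunit, had −0.95 ± 0.70 in RNA and −1.22 ± 0.67 in footprints.

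Other genes of the cell cycle were counted for comparison, on lists that were fixed with earlier results of these data known. Over all genes 3.48% were lower in senescent control RNA at an unadjusted p under 0.05, and 1.57% were called lower with the block. Of 71 further mitosis genes, 67 were below 0 in senescent control RNA (median −0.61), none was called by edgeR, DESeq2 or limma, 11 were lower at an unadjusted p under 0.05 and 11 fell with the block. The 2 most abundant, TUBB4B (a tubulin) and STMN1 (stathmin, which destabilises microtubules), had 0.31 ± 0.27 (adjusted p = 0.893) and −0.20 ± 0.38 (adjusted p = 0.956). Of 38 DNA replication genes, 37 were below 0 (median −0.69), edgeR, DESeq2 and limma called none, 11 were lower at an unadjusted p under 0.05, and 6 fell with the block; PCNA, the sliding clamp of DNA polymerase, had −0.27 ± 0.30 (adjusted p = 0.920) and TYMS, thymidylate synthase, −0.46 ± 0.47 (adjusted p = 0.910). Of 23 MuvB, DREAM and E2F regulators, 20 were below 0 (median −0.38), none was called by the same 3 tools, 2 were lower at an unadjusted p under 0.05, and 2 fell with the block; TFDP1 and E2F4 had −0.01 ± 0.17 (adjusted p = 0.997) and 0.14 ± 0.18 (adjusted p = 0.931). In footprints the medians of the 3 lists were −0.95, −1.0 and −0.38.

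Heat shock of young cells gave a median of −0.30 in RNA over the 40 genes, with 34 below 0, and of −0.41 in footprints, with 39 below 0. None was called by edgeR in either assay, while 3 in RNA and 1 in footprints were lower at an unadjusted p under 0.05, against 5.78% and 8.25% of all genes; DESeq2 called 1 in RNA (PLK4, against 1.7% of all genes lower) and 0 in footprints, and limma 0 in both. Over all genes edgeR called 1.14% in RNA, 0.668% higher and 0.471% lower, and 1.15% in footprints, 0.771% higher and 0.381% lower. Both heat-shocked young libraries were below both young controls for 18 of the 40 in RNA, against 42.7% of all genes, and for 28 in footprints, against 43.3% of all genes, so the RNA share of the 40 was close to that of all genes. Scaling by library size alone moved the median over all genes to −0.27 in RNA and −0.28 in footprints, and that of the 40 to −0.59 and −0.67, with all 40 below 0 in each. Without young control replicate 2 the RNA median was 0.15, and without young heat-shocked replicate 1 it was 0.06, against −0.56 without young control replicate 1 and −0.70 without young heat-shocked replicate 2. The footprint median was −0.12 without young heat-shocked replicate 1 and −1.04 without young heat-shocked replicate 2. Within replicates 31 of the 40 were below 0 in both RNA replicates and 26 in both footprint replicates.

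With replicate number as a block, 4 of the 40 fell in RNA in heat-shocked young cells, against 5.13% of all genes called lower and 3.64% called higher. PLK4 transcripts were at 0.78 and 1.17 TPM in heat-shocked young cells, against 4.13 and 4.93 TPM in young control cells, a change of −1.96 ± 0.56 (edgeR, adjusted p = 0.214) and of −1.99 ± 0.37 (edgeR with the block, adjusted p = 0.0165). AURKA transcripts were at 9.5 and 13.4 TPM in heat-shocked young cells, against 31.3 and 34.5 TPM in young control cells, a change of −1.28 ± 0.23 (edgeR with the block, adjusted p = 0.0149). TTK transcripts were at 1.42 and 1.62 TPM in heat-shocked young cells, against 3.98 and 6.26 TPM in young control cells, a change of −1.45 ± 0.35 (edgeR with the block, adjusted p = 0.0418). For these 3 kinases both heat-shocked libraries of young cells lay below both controls in RNA, as they did for 42.7% of all genes. The fourth was KIF11, −1.02 ± 0.24 (edgeR with the block, adjusted p = 0.037), named after its value was seen. With the GC trend removed too, the 3 kinases were still called, against 5.34% of all genes lower, and KIF11 was not (edgeR, adjusted p = 0.0698). Footprints of PLK4 were at 0.3 and 1.21 TPM in heat-shocked young cells, against 2.58 and 3.02 TPM in young control cells (5 and 22 counts in heat-shocked, against 70 and 96 in control cells), and those of AURKA at 10.8 and 20.2 TPM in heat-shocked young cells, against 32.5 and 31.9 TPM in young control cells. The fitted footprint changes were −1.73 ± 0.79 (edgeR, adjusted p = 0.328) and −0.87 ± 0.34 (edgeR, adjusted p = 0.264). Of the regulators listed, E2F7, a repressor of the E2F family, rose to 25.8 and 14.9 TPM in heat-shocked young RNA, against 6.41 and 6.02 TPM in young control RNA (1.96 ± 0.36, edgeR, adjusted p = 0.0496). E2F7 was the 1 of the 23 regulators called, against 0.668% of all genes called higher. EdgeR called 0 of the 71 further mitosis genes and 0 of the 38 DNA replication genes there.

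In senescent cells the same 3 kinases were lower in both heat-shocked RNA libraries than in both controls, without passing the test. PLK4 transcripts were at 0.38 and 1.26 TPM in heat-shocked senescent cells, against 1.73 and 1.82 TPM in senescent control cells (−0.86 ± 0.56, edgeR, adjusted p = 0.796). TTK transcripts were at 0.66 and 1.82 TPM in heat-shocked senescent cells, against 2.66 and 2.5 TPM in senescent control cells, and AURKA transcripts at 10.9 and 19.6 TPM in heat-shocked senescent cells, against 21.9 and 21.8 TPM in senescent control cells. With ASPM and ECT2, they were the 5 genes of the 40 whose heat-shocked senescent RNA lay wholly below control, against 29.5% of all genes, and for none did it lie wholly above. PLK4, TTK, ASPM and AURKA were also those with the changes furthest below 0 in this comparison, and only 6 of the 40 were below 0.

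Over the 40 genes heat shock of senescent cells gave a median of 0.44 in RNA, with 34 above 0, and of 1.03 in footprints, with 37 above 0. In RNA edgeR, DESeq2 and limma each called 0 of the 40, with 0 at an unadjusted p under 0.05; in footprints edgeR called 1 higher, ASPM, with 6 higher at an unadjusted p under 0.05 (12.9% of all genes), DESeq2 called 4 higher (6.01% of all genes) and limma 0. Over all genes edgeR called 0.577% in RNA, 0.364% higher and 0.212% lower, and 8.35% in footprints, 3.12% higher and 5.24% lower. The positive medians came with senescent heat-shocked replicate 2: without it the median was −0.77 in RNA and −0.26 in footprints. Without senescent control replicate 1 it was 0.09 in RNA and 0.50 in footprints, without senescent control replicate 2 it was 0.83 and 1.60, and without senescent heat-shocked replicate 1 it was 1.03 and 1.67, when edgeR called 13 of the 40 higher in footprints, against 5.59% of all genes. In RNA, 28 of the 40 had opposite signs in replicates 1 and 2, 8 were above 0 in both and 3 below 0 in both; in footprints 24 were above 0 in both and 15 had opposite signs. Scaling by library size alone gave medians of 0.18 in RNA, with 15 of the 40 below 0, and 0.72 in footprints, with 5 below 0, against −0.23 and −0.25 over all genes.

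ASPM footprints were at 0.88 and 2.27 TPM in heat-shocked senescent cells, against 0.33 and 0.64 TPM in senescent control cells, from 69 and 134 counts in heat-shocked and 10 and 31 counts in control cells. The fitted change was 2.32 ± 0.58 (edgeR, adjusted p = 0.045), the 1 call among the 40, against 3.12% of all genes called higher. ASPM was also the single gene of the 40 whose footprints lay wholly above control, against 12.3% of all genes. In neither respect was the share of the 40 above that of all genes. The call was kept in 6 of 17 other settings, with adjusted p between 0.00156 (DESeq2) and 0.212 (without senescent heat-shocked replicate 2), and was lost when scaled by library size alone (0.0579) and in limma on TPM (0.201). Of the 8 settings that leave out a library, the call held in 1, without senescent heat-shocked replicate 1. ASPM transcripts were at 0.3 and 0.58 TPM in heat-shocked senescent cells, against 0.71 and 0.64 TPM in senescent control cells. Transcripts and footprints of ASPM thus lay on opposite sides of their controls.

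ANLN footprints were at 18.6 and 59.7 TPM in heat-shocked senescent cells, against 8.59 and 22.4 TPM in senescent control cells (1.69 ± 0.60, edgeR, adjusted p = 0.106). CENPF footprints were at 1.59 and 6.63 TPM in heat-shocked senescent cells, against 0.8 and 2.41 TPM in senescent control cells (1.71 ± 0.70, edgeR, adjusted p = 0.15). For both, heat-shocked replicate 1 lay below control replicate 2, so the groups overlapped. TOP2A (1.60 ± 0.60) and MKI67 (1.64 ± 0.66) had like values. DESeq2 called ANLN (adjusted p = 0.0098), CENPF (0.0309) and MKI67 (0.0311) higher beside ASPM. With replicate number as a block edgeR called 7 of the 40 higher, against 5.98% of all genes. Beside ASPM these were ANLN (edgeR with the block, adjusted p = 0.0167), CENPF (0.0378), MKI67 (0.0385), CDK1 (0.0434), MAD2L1 (0.0465) and TOP2A (0.047). With the GC trend removed too TOP2A lost the call (edgeR, adjusted p = 0.0525). Footprint numbers were not taken as paired (r of 0.252 between these 2 groups). Without senescent heat-shocked replicate 2 the change of TOP2A was −0.025 and that of CDK1 −0.056. Below 0 in footprints were PLK4, CCNA2 and FOXM1. In RNA FOXM1 was at 7.47 and 28.6 TPM in heat-shocked senescent cells, against 5.04 and 17.7 TPM in senescent control cells, and it was the 1 gene of the 40 called higher with the block (0.85 ± 0.20, edgeR with the block, adjusted p = 0.0454), against 2.66% of all genes called higher and 3.62% called lower. With the GC trend removed too FOXM1 lost the call (edgeR, adjusted p = 0.0576, against 2.34% of all genes higher); without senescent heat-shocked replicate 2 its change was −0.55. Among the other lists, footprints of CKS2, a CDK subunit (2.23 ± 0.36, adjusted p = 0.0121), SMC2, a condensin core protein (1.17 ± 0.26, adjusted p = 0.0286), and RRM1, a ribonucleotide reductase subunit (1.19 ± 0.26, adjusted p = 0.0286), rose in edgeR, as did those of KNTC1 (1.20 ± 0.30, adjusted p = 0.0422). Footprints of FZR1, the other activator of the anaphase-promoting complex (−1.32 ± 0.29, adjusted p = 0.0283), and of E2F3 (−1.25 ± 0.31, adjusted p = 0.0425) fell in edgeR. Those named as higher were 3 of the 71 further mitosis genes and 1 of the 38 DNA replication genes, against 3.12% of all genes. Those named as lower were 1 of the 71 and 1 of the 21 regulators tested, against 5.24% of all genes.

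**Figure D3:**
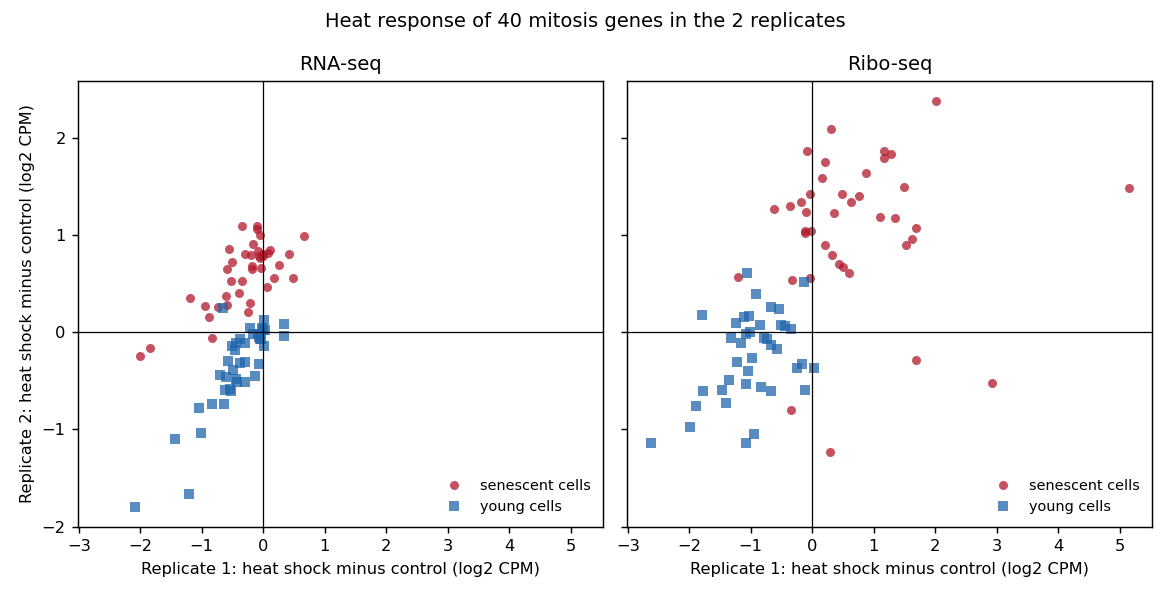
Heat shock minus control in replicate 1 (horizontal) and replicate 2 (vertical), as differences of log2 CPM (counts scaled to library size with TMM), for the 40 mitosis genes in RNA-seq (left) and Ribo-seq (right); red circles are senescent cells and blue squares young cells. In RNA-seq, 31 young points lie below 0 on both axes and 28 senescent points differ in sign between replicates; the point furthest right in Ribo-seq is KIF4A, whose value rests on a control library with 0 counts.

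Given library by library, the heat-shocked levels of the remaining abundant members showed the distance between the replicates. CCNB1 transcripts under heat stood at 8.67 and 18.5 TPM in senescent cells, against 10.6 and 19.1 TPM in young cells. CCNB1 footprints under heat were at 12 and 42.2 TPM in senescent cells, against 14.3 and 32.7 TPM in young cells. Replicate 1 was the lower library in every one of these pairs. CDK1 transcripts under heat measured 8.59 and 17.6 TPM in senescent cells, against 12.7 and 21.1 TPM in young cells. CDK1 footprints under heat amounted to 18.1 and 69.8 TPM in senescent cells, against 20.2 and 57.2 TPM in young cells. CDK1 footprints of senescent cells thus spanned the whole range of the young cells. MKI67 transcripts under heat were at 1.68 and 5.45 TPM in senescent cells, against 3.34 and 5.91 TPM in young cells. MKI67 footprints under heat came to 1.41 and 5.55 TPM in senescent cells, against 2.58 and 3.98 TPM in young cells. MKI67 and TOP2A spread in the same way. TOP2A transcripts under heat amounted to 7.59 and 20.5 TPM in senescent cells, against 13.8 and 20.9 TPM in young cells. TOP2A footprints under heat stood at 9.39 and 41.3 TPM in senescent cells, against 16.4 and 25.4 TPM in young cells. The highest TOP2A footprint level of all 8 libraries was that of heat-shocked senescent replicate 2. UBE2C transcripts under heat came to 12.4 and 44.3 TPM in senescent cells, against 21.6 and 46.2 TPM in young cells. UBE2C footprints under heat measured 27.4 and 110.3 TPM in senescent cells, against 39.5 and 102 TPM in young cells. Senescent and young libraries overlapped for UBE2C. PTTG1 transcripts under heat stood at 24.2 and 55.6 TPM in senescent cells, against 26.1 and 50.3 TPM in young cells. PTTG1 footprints under heat were at 24.9 and 77.1 TPM in senescent cells, against 26.5 and 77.4 TPM in young cells. PTTG1 likewise overlapped. MAD2L1 transcripts under heat measured 7.67 and 19.6 TPM in senescent cells, against 14 and 22.6 TPM in young cells. MAD2L1 footprints under heat amounted to 21.6 and 51.3 TPM in senescent cells, against 21 and 53.5 TPM in young cells. The checkpoint genes MAD2L1 and BUB1 overlapped between the states in both assays. BUB1 transcripts under heat were at 2.15 and 6.42 TPM in senescent cells, against 4.35 and 6.81 TPM in young cells. BUB1 footprints under heat came to 2.42 and 8.69 TPM in senescent cells, against 6.31 and 6.31 TPM in young cells.

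BIRC5 transcripts under heat amounted to 9.11 and 32.1 TPM in senescent cells, against 13.6 and 31.7 TPM in young cells. BIRC5 footprints under heat stood at 16 and 36 TPM in senescent cells, against 14.4 and 49.2 TPM in young cells. BIRC5 and TPX2 overlapped between the states in both assays. TPX2 transcripts under heat came to 9.3 and 27.7 TPM in senescent cells, against 15.6 and 27.3 TPM in young cells. TPX2 footprints under heat measured 8.29 and 19.7 TPM in senescent cells, against 11.1 and 20.9 TPM in young cells. So did NUSAP1. NUSAP1 transcripts under heat stood at 4.76 and 13.6 TPM in senescent cells, against 8.72 and 14.8 TPM in young cells. NUSAP1 footprints under heat were at 5.29 and 30.5 TPM in senescent cells, against 10.7 and 25.5 TPM in young cells. The kinetochore genes were at lower levels. NDC80 transcripts under heat measured 2.1 and 5.17 TPM in senescent cells, against 3.58 and 3.93 TPM in young cells. NDC80 footprints under heat amounted to 2.16 and 10.1 TPM in senescent cells, against 4.26 and 6.66 TPM in young cells. The senescent replicates of NDC80 lay on either side of both young libraries. NUF2 transcripts under heat were at 1.67 and 3.57 TPM in senescent cells, against 3.12 and 3.42 TPM in young cells. NUF2 footprints under heat came to 2.4 and 5.25 TPM in senescent cells, against 2.37 and 4.4 TPM in young cells. NUF2 overlapped between the states in both assays. ANLN transcripts under heat amounted to 12.8 and 24.1 TPM in senescent cells, against 28.8 and 29.6 TPM in young cells. ANLN footprints under heat stood at 18.6 and 59.7 TPM in senescent cells, against 28.2 and 46.4 TPM in young cells. Both senescent libraries had less ANLN transcript than both young ones. PRC1 transcripts under heat came to 6.98 and 21.8 TPM in senescent cells, against 13.9 and 25 TPM in young cells. PRC1 footprints under heat measured 9.56 and 26.3 TPM in senescent cells, against 19 and 16.7 TPM in young cells. PRC1 overlapped. NCAPG transcripts under heat stood at 3.26 and 9.74 TPM in senescent cells, against 7.65 and 8.75 TPM in young cells. NCAPG footprints under heat were at 6.54 and 18.9 TPM in senescent cells, against 8.05 and 17.1 TPM in young cells. NCAPG had 1 senescent library above both young ones and 1 below.

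**Figure D4:**
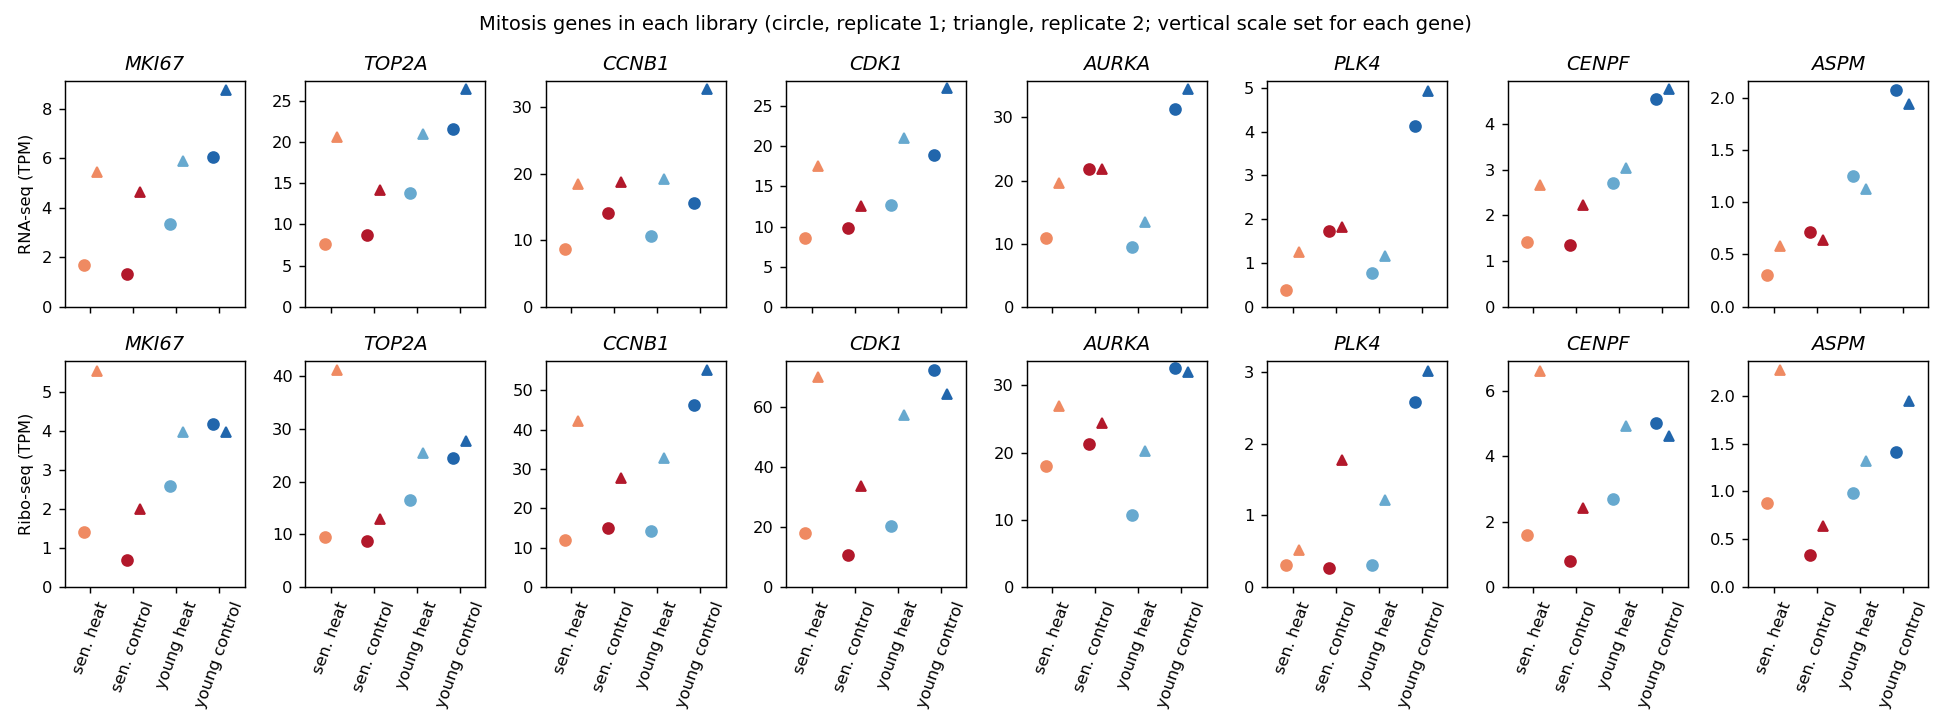
TPM of 8 mitosis genes in each library, transcripts in the top row and footprints in the bottom row, each panel with its own vertical scale from 0; circles are replicate 1 and triangles replicate 2. PLK4 and AURKA transcripts were lower in both heat-shocked libraries of each state than in its controls, and ASPM footprints were higher in both heat-shocked senescent libraries (0.88 and 2.27 TPM) than in the senescent controls (0.33 and 0.64 TPM).

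Under heat shock the median of senescent against young cells was −0.16 in RNA, with 30 of the 40 below 0, and 0.22 in footprints, with 34 above 0. EdgeR called 0 in both assays, with 1 lower in RNA (ASPM) and 1 higher in footprints (CENPE) at an unadjusted p under 0.05, against 5.23% and 5.78% of all genes, and DESeq2 and limma called 0. Over all genes edgeR called 0% in RNA, and 0.00886% lower and 0% higher in footprints. ASPM transcripts were at 0.3 and 0.58 TPM in heat-shocked senescent cells, against 1.25 and 1.13 TPM in heat-shocked young cells, and this was the 1 call with the block, −1.38 ± 0.28 (edgeR with the block, adjusted p = 0.0218), against 5.62% of all genes called lower and 8.12% called higher. With the GC trend removed too it was lost (edgeR, adjusted p = 0.0826), and 0 of the 40 were called, against 2.82% of all genes lower. CENPE footprints were at 1.49 and 3.84 TPM in heat-shocked senescent cells, against 1.15 and 1.29 TPM in heat-shocked young cells (1.32 ± 0.45, edgeR, adjusted p = 0.314), and CENPE transcripts at 0.97 and 0.45 TPM in heat-shocked senescent cells, against 1.37 and 0.65 TPM in heat-shocked young cells. Both senescent libraries were below both young ones for 4 of the 40 in RNA (ASPM, CCNA2, ANLN and CENPF), against 22.7% of all genes, and for 3 in footprints (FOXM1, CCNA2 and CENPA), against 26.5%. Without senescent heat-shocked replicate 2 the medians were −1.29 in RNA and −1.04 in footprints, and without senescent heat-shocked replicate 1 they were 0.47 and 0.86, when CENPE was called in footprints (1.88, adjusted p = 0.0233), against 0.724% of all genes called higher. Without young heat-shocked replicate 1 the medians were −0.49 and −0.12, and without young heat-shocked replicate 2 they were 0.23 and 0.71. On log2(TPM + 1) the footprint median was −0.09, with 26 of the 40 below 0. Within replicates, 25 genes in RNA and 32 in footprints had opposite signs.

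The response to heat in senescent cells minus that in young cells had a median of 0.69 in RNA and 1.46 in footprints, with all 40 above 0 in each, and these comparisons share their control and heat-shocked libraries with those above. EdgeR called 0 of the 40 and 0% of all genes in both assays, with 0 in RNA and 5 higher in footprints at an unadjusted p under 0.05 (1.85% of all genes); DESeq2 and limma called 0. The 5 were ASPM, CENPE, KIF11, AURKA and KIF2C, named after their values were seen. For ASPM the difference was 2.50 ± 0.79 (edgeR, adjusted p = 0.834), for CENPE 1.84 ± 0.63 (edgeR, adjusted p = 0.834) and for KIF11 1.80 ± 0.68 (edgeR, adjusted p = 0.834). Without senescent heat-shocked replicate 2 the median was −0.51 in RNA and 0.25 in footprints, and over the other libraries left out in turn it lay between 0.28 and 1.29 in RNA and between 0.99 and 2.27 in footprints.

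Translational efficiency, the footprint change minus the RNA change over 12831 genes, had a median over the 40 of −0.43 in senescent against young control cells (37 below 0), 0.35 under heat shock (9 below 0), −0.17 on heat shock of young cells (27 below 0) and 0.53 on heat shock of senescent cells (6 below 0). EdgeR called 0 of the 40 in each of the 4 comparisons, with 0, 2 (ASPM and CENPE), 0 and 1 (ASPM) higher at an unadjusted p under 0.05, against 0.468%, 1.72%, 1.04% and 4.92% of all genes. DESeq2 called 1, ASPM, on heat shock of senescent cells (1.37% of all genes higher), where limma called 0. With each library left out in turn the 4 medians ranged over −1.33 to 0.08, −0.86 to 1.42, −0.62 to 0.29 and −0.57 to 1.70, so that none kept its sign throughout. Over all genes edgeR called 0.00779%, 0%, 0.0701% and 2.38% in either direction in that order of comparisons. On heat shock these were 0.0312% higher and 0.039% lower in young cells, and 0.187% higher and 2.2% lower in senescent cells. The efficiency difference of ASPM was 2.65 ± 0.74 (edgeR, adjusted p = 0.0872) on heat shock of senescent cells. The standard error is approximate. Footprint levels of single members rested on few reads: the median count over the 40 was 40.5 and 111 in the senescent control libraries, against 269 and 342.5 in the young control libraries, and 71 and 194.5 in heat-shocked senescent, against 71 and 143.5 in heat-shocked young libraries.

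**Figure D5:**
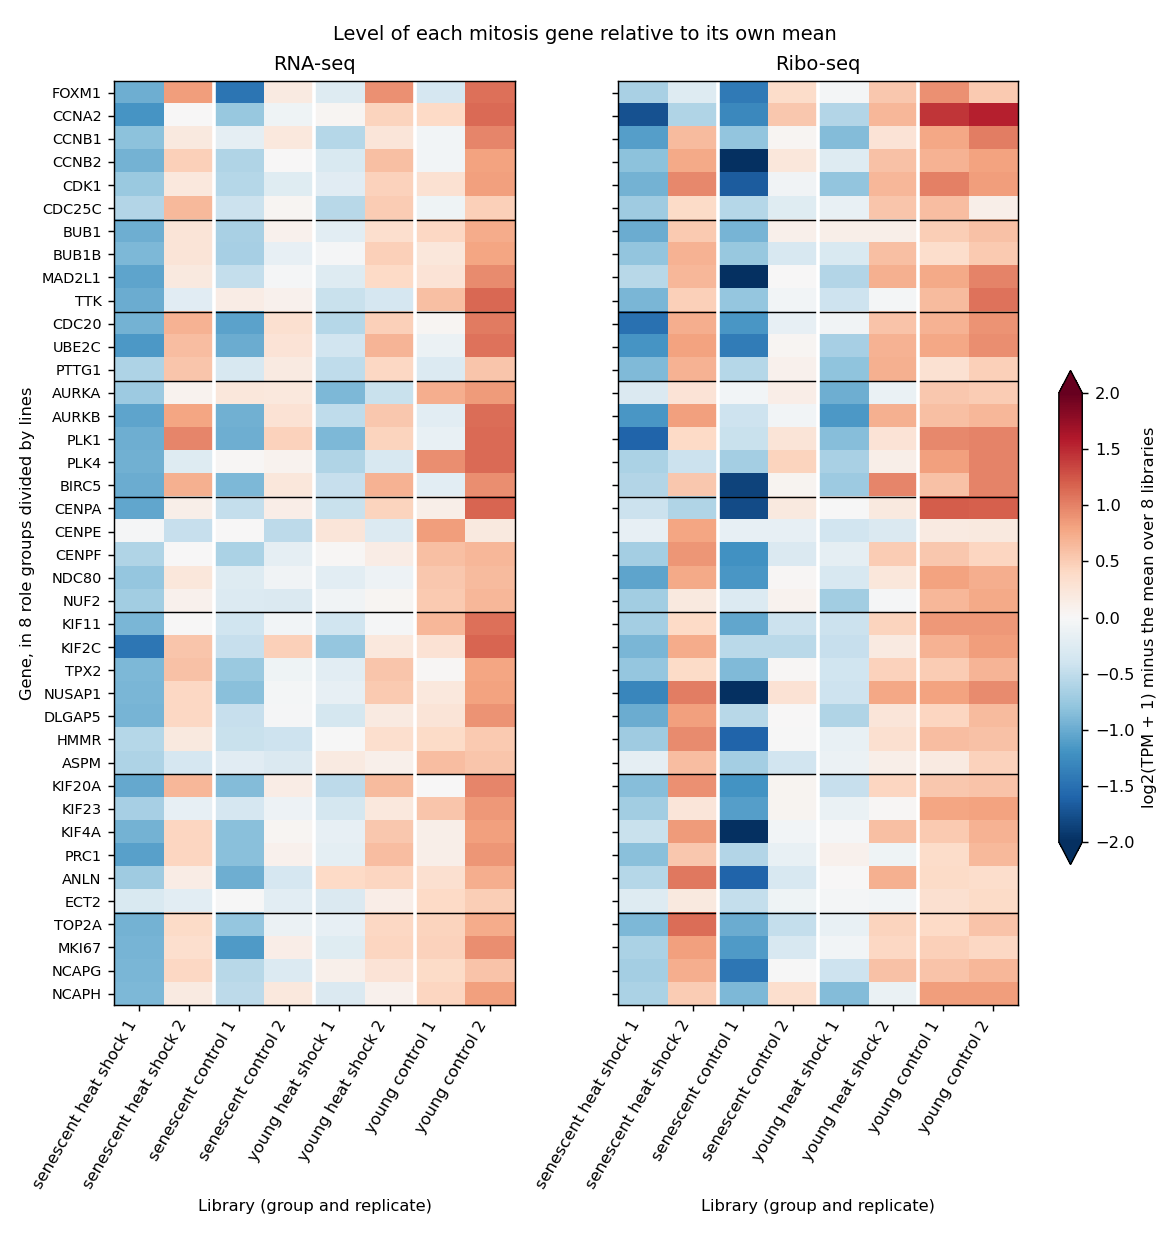
Level of each of the 40 mitosis genes (rows, divided into 8 role groups) in each library (columns) as log2(TPM + 1) minus the mean of that gene over the 8 libraries of the assay, for RNA-seq (left) and Ribo-seq (right); red is above and blue below the mean, with colours held at −2 and 2. Both young control columns are above the mean for most genes in footprints, and replicate 1 is lower than replicate 2 for most genes in the other groups, most of all in heat-shocked senescent cells (medians of 1.78 in RNA and 1.88 in footprints).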

How the data were processed

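RNA-seq and Ribo-seq of WI-38 cells gave 16 libraries in 8 groups of 2, grouped by the labels. The authors deposited expected counts from RSEM, whole numbers in the files, and TPM values; the submitters' processing notes name STAR, Bowtie2, RSEM and hg19, without roles or versions. Counts carry no molecular identifiers, and strand is not stated, so that 13 of the 40 members, whose exons overlap another gene's in GENCODE, could share reads with it.

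Expected counts, taken as deposited, were tested with edgeR 4.0.16 (quasi-likelihood, TMM scaling, filterByExpr, Benjamini-Hochberg over all genes, threshold 0.05; R 4.3.3), per assay on 8 libraries with 4 residual degrees of freedom, and for translational efficiency on all 16. All 40 members passed the filter. Errors of log2 changes are approximate, from the F statistic. Levels are deposited TPM. Alternatives were DESeq2 1.42.0, limma 3.58.1 on log2(TPM + 1), other scalings, no filter, removal of a GC trend, each library left out and the replicate number as a block. Replicate differences correlated between groups with r of 0.481 to 0.658 in RNA and −0.038 to 0.329 in footprints. The labels do not say what a number marks. The RNA numbers were taken as paired from these correlations alone. The scripts were tested on simulated data. Per-library values are given for the 2 most abundant members of each role, for MKI67, TOP2A, CCNB1 and CDK1, and for called members. Members and lists were chosen with earlier results of these data known.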

Additional observations from a re-analysis of the deposited data

Results flagged for a closer look

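For ASPM footprints the response to heat was 2.50 (SE 0.79, log2) higher in senescent than in young cells, and the difference itself did not pass the test over all genes (edgeR, adjusted p = 0.834). For CENPE footprints the difference of senescent against young cells was 1.84 (SE 0.63) higher under heat shock than in control cells, with the same adjusted p of 0.834 in edgeR. In each case both libraries of the first group lay above both of the second in one comparison and below them in the other, in TPM. No group held enough libraries to look for a library far from the others.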

How the results depend on the processing

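Over 26 settings, 499 of the counts and medians over the 40 kept their value and 37 moved. Counts were kept if within 1.5 times, and medians if within the spread between same-group library medians. That spread was wide, at 0.852 in RNA, 0.884 in footprints and 1.227 in efficiency on the log2 scale. A median could therefore change sign and still count as kept, so 499 is no measure of stability. Counts over all genes stayed within 1.5 times in 123 cases and moved in 145. Values of single genes kept their direction and side of the threshold in 319 cases, passed only under another setting in 48, no longer passed in 11 and changed sign in 4. With the replicate block the calls were 8, 1, 4 and 1 in RNA (senescent against young in control cells and under heat, heat in young and in senescent cells). On heat shock of senescent cells they were 7 in footprints (CDK1, MAD2L1, CENPF, ASPM, ANLN, TOP2A and MKI67) and 1 in efficiency. The block changed no other count. Footprint numbers were not taken as paired. Replicate differences of the 2 senescent groups correlated there with r of 0.252, and those of young control cells with the other groups with r of −0.038 to −0.0281. Block and GC trend together gave 2 in control RNA, 3 on heat shock of young cells in RNA, and 6 in footprints and 1 in efficiency on heat shock of senescent cells. Without the filter there was 1 call in RNA on heat shock of young cells, 2 in control footprints, and 5 in footprints and 1 in efficiency on heat shock of senescent cells; DESeq2 gave 1, 1, 4 and 1. The footprint call on heat shock of senescent cells went to 0 by library size alone, with the GC trend removed, in limma and with only the libraries compared. With a library left out its count ranged over 0 to 13, that of footprints under heat over 0 to 1 and that of efficiency on heat shock of senescent cells over 0 to 1, and all others stayed at 0. The medians ranged in RNA over −1.35 to −0.45 (control), −1.29 to 0.47 (under heat), −0.70 to 0.15 (heat in young), −0.77 to 1.03 (heat in senescent) and −0.51 to 1.29 (difference of responses), and in footprints over −2.13 to −0.75, −1.04 to 0.86, −1.04 to −0.12, −0.26 to 1.67 and 0.25 to 2.27. FOXM1 RNA reversed to 0.10 in control cells without young control replicate 2 and to −0.55 on heat shock of senescent cells without senescent heat-shocked replicate 2, without which CDK1 (−0.056) and TOP2A (−0.025) footprints reversed. Over the libraries left out these 4 values ranged over −2.12 to 0.10, −0.55 to 2.14, −0.056 to 2.38 and −0.025 to 2.31. The cause was not tested. By a chi-square over genes with at least 10 counts, no pair of same-group libraries was alike enough to be counted as 1. Over so many genes this test finds even small differences, so it could hardly return another answer. The chi-square per degree of freedom was 1.72 for the young control footprint libraries and 16.5 to 99.8 for the other pairs. Footprint depth limits the least abundant members.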
